A study of Rattus norvegicus with 6 samples.

Results

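The Golgi enzymes that trim mannose from N-glycans, and those that add the first outer sugars, were examined in RK3E cells transformed by GLI1. The set holds 10 genes: the mannosidases Man1a1, Man1c1, Man2a1 and Man2a2, the GlcNAc transferases Mgat1, Mgat2 and Mgat5, and the core fucosyl-, sialyl- and galactosyltransferases Fut8, St6gal1 and B4galt1. Their members are the probe sets that the array annotation ties to exactly 1 of these symbols, 19 of 31042 probe sets once controls were left out, and they name 10 of 14217 genes. The genes were chosen by the GLI1 against parental log2 differences of these same arrays, in which mannosidase genes were lower together. Every GLI1 against parental value of a member is therefore a description: no p is given for a member, an SE is given for probe sets that passed the signal filter, and a count of calls stands once beside that of the whole array.

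Total RNA of 6 samples was hybridised to 1-colour Affymetrix rat arrays. RK3E is an epithelial line derived from rat kidney and immortalised by an adenoviral oncogene, which parental and transformed cells share; all were grown in DMEM with serum. For 4 arrays the cells had been transfected with a GLI1 expression construct and grown from single transformed foci: 1 array is labelled clone I, 2 are labelled clone II, and for 1 the title names no clone. The 2 remaining arrays are of parental RK3E cells, for which the labels name no empty construct and repeat the same transfection text; no source used here names the promoter that drives GLI1.

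N-glycans are built on a lipid in the endoplasmic reticulum, moved as a block onto protein, and shortened while the protein folds. In the Golgi, class I mannosidases such as Man1a1 and Man1c1 remove alpha-1,2-linked mannose. Mgat1 then adds the first GlcNAc branch, which lets the alpha-mannosidases II, Man2a1 and Man2a2, cut the last mannose residues that Mgat2 must have out of its way. Mgat5 adds a further branch, Fut8 puts fucose on the core, B4galt1 adds galactose and St6gal1 caps it with sialic acid.

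Signals are MAS5 values, given here as log2, and each array had been scaled to the same trimmed mean. Array medians ran from 568 to 696 in signal. Gli1 itself was high on all transformed arrays, at 11.71 to 13.15 in log2 signal, and low on the parental ones, at 5.17 and 6.50. The GAPDH 3'/5' signal ratio, a sign of RNA integrity, reached 7.52 on clone II replicate 1 and 3.66 on parental replicate 1 and lay between 1.39 and 2.09 elsewhere. Of the kidney epithelium markers, 2 of 8 on the array, Krt8 and Epcam, exceeded the signal filter described below, while Krt18, Krt19, Cdh1, Cdh16, Pax2 and Pax8 did not. In bulk RNA, fewer cells of a type and less RNA per cell cannot be told apart.

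Among the class I mannosidases, Man1a1 gave a log2 signal of 9.07 on the array without a clone name, 7.0 in clone I, 10.09 and 9.88 in clone II, and in parental cells 12.08 and 11.32. All GLI1 arrays lay below both parental arrays, and clone I lay furthest down. The means were 9.01 ± 1.41 (SD, n = 4) in transformed and 11.70 ± 0.54 (SD, n = 2) in parental cells, a log2 difference of -2.69 (SE 0.76), or 6.43-fold lower. A second Man1a1 probe set showed the same order of the groups with a smaller log2 difference, -1.22 (SE 0.39), and had its lowest array, at 8.54, on the array without a clone name.

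For Man1c1, the other class I enzyme of the set, the array without a clone name had a log2 signal of 9.94, clone I 9.47, clone II 9.52 and 8.14, and parental cells 11.89 and 11.56. The GLI1 values did not reach the parental ones, and the lowest was that of clone II replicate 2. Transformed cells averaged 9.26 ± 0.78 (SD, n = 4) and parental cells 11.73 ± 0.23 (SD, n = 2), with a log2 difference of -2.46 (SE 0.46), 5.52-fold lower. Its other probe set again kept the groups apart, at a difference of -1.12 (SE 0.35).

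Man2a1, which encodes Golgi alpha-mannosidase II, was the steadiest of the strongly lower genes. In log2 signal the array without a clone name read 10.94, clone I 10.45, clone II 10.45 and 10.80, and the parental cells 13.15 and 12.81, so that a gap of 1.87 separated the groups. Group means of 10.66 ± 0.25 (SD, n = 4) and 12.98 ± 0.24 (SD, n = 2) gave a difference of -2.32 (SE 0.23), 4.99-fold lower. A second probe set differed by -2.21 (SE 0.29), and the dimmest, below the filter, by -3.05. All GLI1 arrays lay below the parental ones on each of the 3 probe sets.

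Man2a2, the second alpha-mannosidase II, differed less. It read 11.44 without a clone name, 11.49 in clone I, 11.53 and 11.37 in clone II, and 12.43 and 12.10 in parental cells, in log2 signal. The GLI1 arrays spanned only 0.16 and stayed under both parental arrays, with a log2 difference of -0.81 (SE 0.19), 1.75-fold lower. On the dimmer Man2a2 probe set the groups overlapped: the array without a clone name, at 9.67, exceeded parental replicate 2, at 9.59, and the difference was -0.64 (SE 0.38).

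Since the mannosidases were lower together, the 250 bases before each RefSeq start site are shown (GRCr8, the build of the sequence table), 5′ to 3′ along the gene. Capitals mark CCAAT or its reverse complement ATTGG, the usual CCAAT-box letters, and CCACCCA or TGGGTGG, the core of the sequence that GLI factors bind.

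Man1a1, chr20:33927502-33927751, minus strand: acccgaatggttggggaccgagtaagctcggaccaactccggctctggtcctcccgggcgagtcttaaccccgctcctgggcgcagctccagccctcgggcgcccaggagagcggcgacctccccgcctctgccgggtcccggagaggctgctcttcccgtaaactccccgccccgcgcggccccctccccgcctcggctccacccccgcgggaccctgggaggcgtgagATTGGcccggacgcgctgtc

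Man1c1, chr5:152196940-152197189, minus strand: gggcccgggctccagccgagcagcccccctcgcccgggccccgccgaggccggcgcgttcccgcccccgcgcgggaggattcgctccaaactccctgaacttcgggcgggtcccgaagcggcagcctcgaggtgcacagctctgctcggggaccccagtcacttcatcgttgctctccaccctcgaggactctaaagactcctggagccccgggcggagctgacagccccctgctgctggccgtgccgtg

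Man2a1, chr9:111698663-111698912, plus strand: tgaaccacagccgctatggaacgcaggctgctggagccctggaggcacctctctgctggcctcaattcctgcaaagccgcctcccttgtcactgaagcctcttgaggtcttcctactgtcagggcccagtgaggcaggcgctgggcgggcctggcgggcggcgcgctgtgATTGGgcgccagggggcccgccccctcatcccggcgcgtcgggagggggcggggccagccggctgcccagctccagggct

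Man2a2, chr1:143736563-143736812, minus strand: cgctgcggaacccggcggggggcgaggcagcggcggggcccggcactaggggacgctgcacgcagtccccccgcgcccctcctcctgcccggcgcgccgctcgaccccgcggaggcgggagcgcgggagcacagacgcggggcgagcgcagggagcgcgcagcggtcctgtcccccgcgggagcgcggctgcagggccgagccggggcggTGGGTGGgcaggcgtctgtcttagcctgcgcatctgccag

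The GLI core letters occurred once among these, 40 bases before the Man2a2 start, in the mannosidase gene with the smallest difference. Counting both strands, 1 of 11 windows of the 10 genes held it (Fut8 has 2 start sites in the table), against 7.93% of 33469 rat windows of the same length. CCAAT was found in 5 member windows, those of Man1a1, Man2a1, Mgat2, St6gal1 and 1 of Fut8, and in 34% of all windows. The GC box GGGCGG, or CCGCCC on the other strand, lay in 9 member windows and in 30.5% of all. The member windows were rich in G and C, with a median of 70.8% against 51.2%. No match in a member window overlapped a match to another of the motifs. A match of letters is a description, not a binding site.

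**Figure D1:**
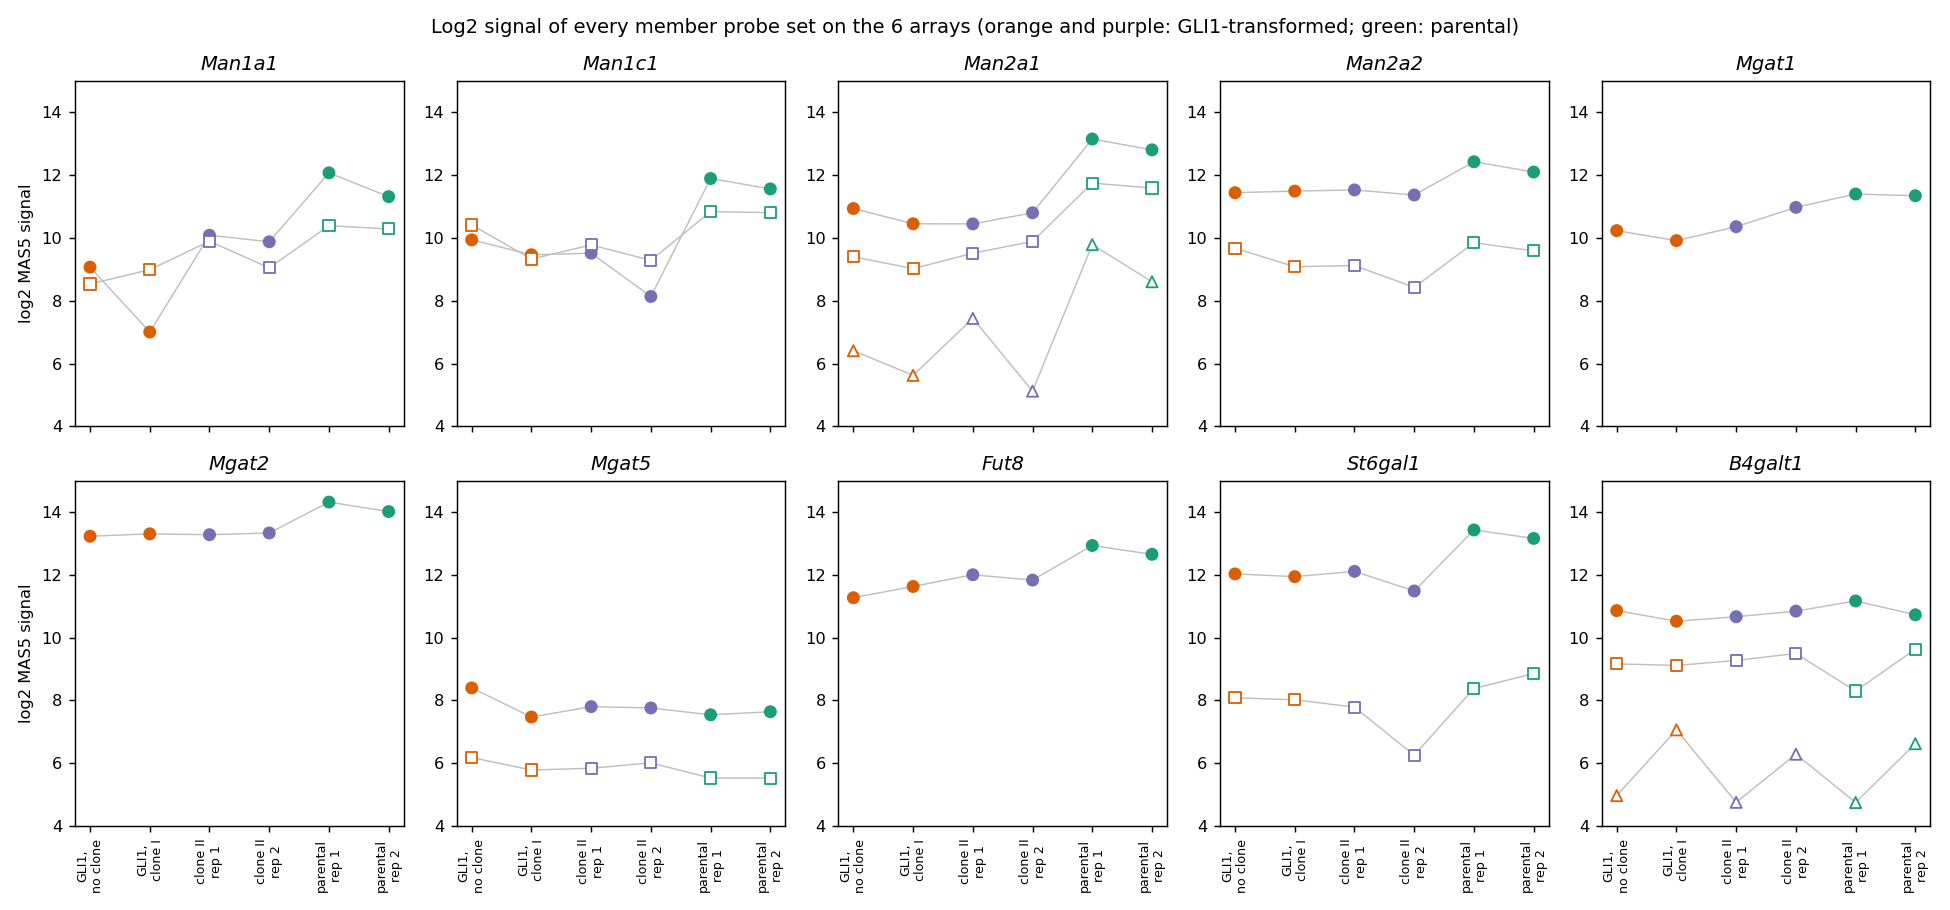
Log2 MAS5 signal (vertical axis) of the 19 member probe sets on the 6 arrays (horizontal axis), 1 panel per gene, with orange for GLI1 without a clone name and clone I, purple for clone II and green for parental cells. Filled circles are the brightest probe set of a gene, open squares and triangles its others, and lines only join the values of 1 probe set; Man2a1 shows a gap of 1.87 between the groups on its brightest probe set, while B4galt1 shows none.

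Of the branching enzymes, Mgat1 and Mgat2 were lower and Mgat5 was not. Mgat1, which starts the first complex branch, read 10.23 without a clone name, 9.92 in clone I, 10.36 and 10.97 in clone II, and 11.40 and 11.35 in parental cells, in log2 signal. Clone II replicate 2 came within 0.37 of the lower parental array, the closest approach for this gene. The log2 difference was -1.0 (SE 0.30), a 2.0-fold lower level.

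For Mgat2, which adds the second branch, the 4 GLI1 arrays agreed within 0.10: 13.23 without a clone name, 13.31 in clone I, and 13.28 and 13.34 in clone II, in log2 signal. The parental arrays read 14.32 and 14.02. Its difference, -0.88 (SE 0.16), 1.84-fold lower, had the smallest SE of the 14 member probe sets that passed the filter. The Mgat2 and Man2a2 profiles over the 6 arrays, each centred on its own mean, differed by 0.08 (root mean square, log2), the smallest distance among pairs of the 10 genes.

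Mgat5, whose branch is known for its rise in many transformed cells, lay under the signal filter on both of its probe sets and was not tested. The brighter one read 8.40, 7.47, 7.80 and 7.76 in the GLI1 arrays, in the order used above, and 7.54 and 7.64 in the parental arrays, and the groups overlapped (difference 0.27). On the dimmer one the GLI1 arrays, at 5.78 to 6.18, all lay above the parental arrays, both at 5.53 (difference 0.43). With 32 added to each signal before the log, that value became 0.27.

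Fut8, the only enzyme that adds core fucose, read 11.27 without a clone name, 11.63 in clone I, 12.00 and 11.83 in clone II, and 12.94 and 12.66 in parental cells. No GLI1 array came nearer than 0.65 to a parental one. The log2 difference was -1.11 (SE 0.24), 2.16-fold lower.

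St6gal1, which adds alpha-2,6-linked sialic acid to galactose, had log2 signals of 12.03 without a clone name, 11.94 in clone I, 12.11 and 11.49 in clone II, and 13.43 and 13.16 in parental cells. The means, 11.89 ± 0.28 (SD, n = 4) and 13.30 ± 0.19 (SD, n = 2), differed by -1.40 (SE 0.22), 2.64-fold lower. A second, dim St6gal1 probe set differed by -1.08 with no overlap of the groups, a value that became -0.66 without clone II replicate 2.

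B4galt1, the main galactosyltransferase of N-glycans, showed no common direction. Its brightest probe set read 10.86, 10.53, 10.67 and 10.85 in the GLI1 arrays and 11.17 and 10.73 in the parental arrays, with overlap and a log2 difference of -0.22 (SE 0.24). A second had a difference of 0.30 (SE 0.41), with parental values of 8.30 and 9.63 on either side of all GLI1 values, and the third, below the filter, one of 0.08. The sign of each of the 3 turned under at least 1 alternative. Without parental replicate 1 the second became -0.37 and the third -0.85, while the brightest kept its sign at -0.004.

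**Figure D2:**
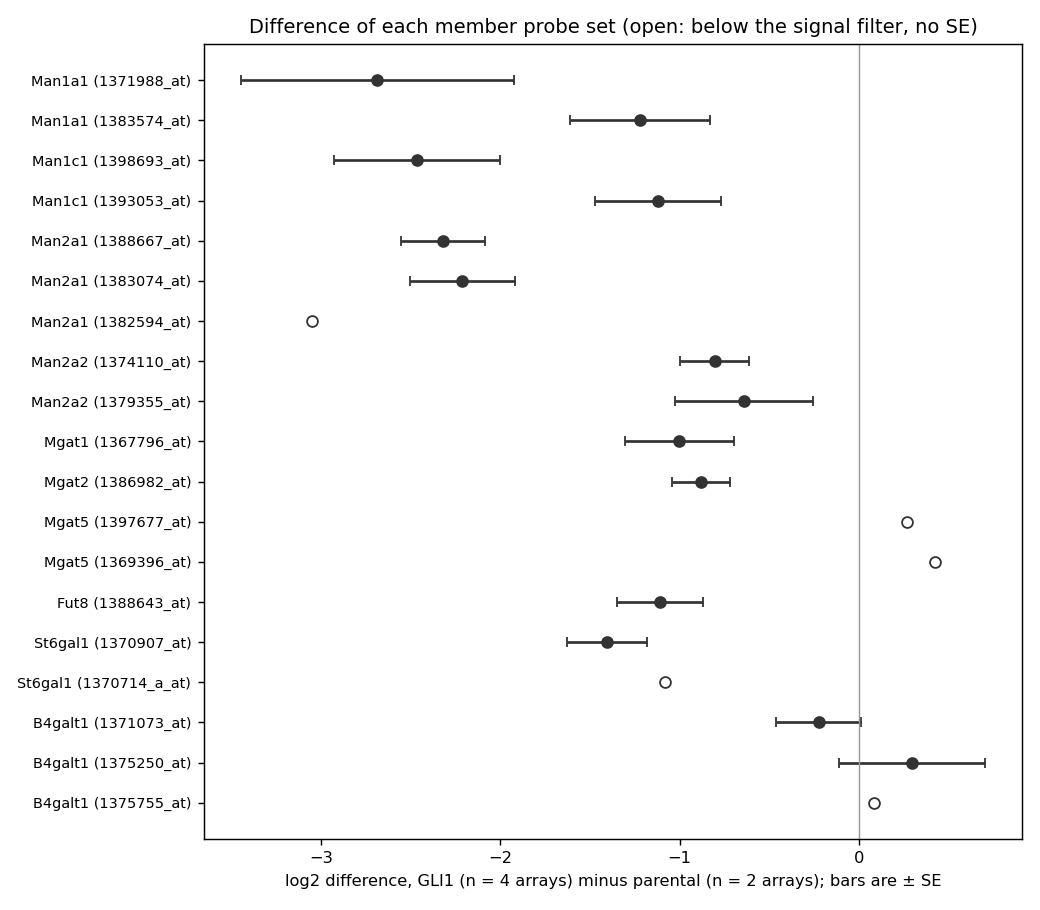
Log2 difference between 4 GLI1 and 2 parental arrays (horizontal axis) for each of the 19 member probe sets (vertical axis), with ± SE from limma; open points lay below the signal filter and have no SE. The 9 mannosidase probe sets all sit left of 0, from -3.05 to -0.64, and the B4galt1 and Mgat5 points lie around or right of it.

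Counted over probe sets, 14 of the 19 members, of 9 genes, passed the filter on mean log2 signal (8.33). Of these 14, 8 had an adjusted p under 0.05 as lower and 0 as higher in the limma fit across the array, where 7.25% of all 18625 tested probe sets were called lower and 5.84% higher. All GLI1 arrays lay below both parental arrays for 11 of the 14 members (20.2% of tested probe sets) and for 13 of the 19 (16.6% of all probe sets), and above them for 1 of the 19 (14.4%). The median log2 difference of the 14 was -1.12, beside 0.00 over all tested probe sets. This contrast chose the genes, so nothing is read from these counts. The 16 member probe sets outside B4galt1 kept the sign of their difference under each of 12 alternatives. These included every omission of 1 array and the omission of clone II replicate 1 and parental replicate 1 together. Where the groups did not overlap, leaving arrays out could not change the sign, and the replicate block did not alter the differences. Nothing is read from this stability either.

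The comparison of clone II with the other GLI1 arrays played no part in the choice, and in it the members were tested. It asks whether isolates of transformed cells differ, although the clone of the unnamed array is not known. None of the 14 members was called (0 at an adjusted p under 0.05 and 1 at an unadjusted p under 0.05, limma), where 0.129% of tested probe sets were called and 8.65% had an unadjusted p under 0.05. Man1a1 was the member with the low unadjusted p: clone II read 9.88 and 10.09 and the other transformed arrays 7.0 and 9.07, a log2 difference of 1.95 (SE 0.62, unadjusted p = 0.0126 and adjusted p = 0.395, limma).

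The other Man1a1 probe set had a clone II difference of 0.71 (SE 0.40, adjusted p = 0.682), with clone II at 9.90 and 9.05 against 8.54 and 8.99. Man1c1 pointed the other way, -0.88 (SE 0.46, adjusted p = 0.653). For Man2a1 and Man2a2 the differences were -0.07 (SE 0.27, adjusted p = 0.964) and -0.02 (SE 0.23, adjusted p = 0.991). Mgat1 (0.59, SE 0.30, adjusted p = 0.634) and Fut8 (0.47, SE 0.23, adjusted p = 0.626) did not pass either. A missed threshold does not show that the clones are alike. Over 190 refits under the alternatives, 0 member tests passed.

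Other genes of N-glycan synthesis, breakdown, binding and Golgi structure were read from 12 lists that hold none of the 10 members. There the GLI1 against parental contrast was tested. The lists too were chosen with earlier results of these data known, which the p-values do not take into account. Of 114 tested genes 10 fell, 5 rose and 99 did not pass (limma, adjusted p under 0.05), where 7.75% of 10240 tested genes were called lower and 7.8% higher. The median log2 difference of the 114 was -0.05, and that of all tested genes 0.07. Without parental replicate 1 the counts were 1 fallen and 1 risen, without parental replicate 2 they were 1 and 2, and without clone I 5 and 3. Golim4, which fell, and Gfpt2, which rose, passed under each of 16 alternatives.

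At the early steps 1 of 37 tested genes passed. In the list for the lipid-linked precursor 0 of 25 tested genes passed, with differences from -0.87 to 0.74 and a median of 0.09. Of 12 oligosaccharyltransferase subunits, which pass the glycan to protein, 1 rose, Rpn1 (0.67, SE 0.18, adjusted p = 0.0404), and the catalytic subunit genes Stt3a (-0.76, adjusted p = 0.0856) and Stt3b (-0.19, 0.542) did not pass. Rpn1 lost its call in 8 of 16 alternatives (adjusted p from 0.021 to 0.294).

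Of 15 tested genes of trimming and folding control in the endoplasmic reticulum, 2 fell. Uggt1, the sensor that puts glucose back on misfolded glycoproteins, fell by 1.23 in log2 signal (SE 0.33, adjusted p = 0.0426, limma), and Ngly1, which strips N-glycans in the cytosol, fell by 0.78 (SE 0.21, adjusted p = 0.0441). Both calls were lost with either parental array left out, with clone I left out and with arrays centred on their medians, and over 16 alternatives the adjusted p ran from 0.0155 to 0.265 for Uggt1 and from 0.0323 to 0.328 for Ngly1. Man1b1, the mannosidase of that compartment, gave -0.22 (adjusted p = 0.647).

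In the list of further mannosidases, which leaves out Man1b1, 2 of 5 tested genes fell, both of lysosomal enzymes: Manba, the beta-mannosidase, by 1.19 (SE 0.24, adjusted p = 0.0125, limma) and Man2b1, the alpha-mannosidase, by 0.85 (SE 0.21, adjusted p = 0.0312). Man2c1, the cytosolic enzyme, gave 0.00 (adjusted p = 0.997), Manea, a Golgi endomannosidase, -0.21 (0.583), and Man1a2, a further class I Golgi enzyme, -0.51 (0.365). Man1a2 read 8.79 to 9.60 in GLI1 arrays and 9.68 and 9.78 in parental arrays, apart by 0.08. Man2b1 lost its call in 8 of 16 alternatives (adjusted p from 0.0117 to 0.325), among them median centring and the omission of clone I, of clone II replicate 1 or of either parental array, and its second probe set did not pass (-0.59, adjusted p = 0.325). Manba lost its call in 3 of 16 (0.0108 to 0.118), those without parental replicate 1, parental replicate 2, or the 2 arrays of highest GAPDH ratio.

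The enzymes that build galactose and N-acetyllactosamine chains went both ways: of 7 tested, 3 fell, 1 rose and 3 did not pass. Gcnt2, which branches polylactosamine, read 8.88 and 9.53 in the array without a clone name and clone I, 10.63 and 9.56 in clone II, and 12.21 and 11.55 in parental cells. It fell by 2.23 (SE 0.44, adjusted p = 0.0126, limma). B3gnt2, which extends these chains, fell by 1.27 (adjusted p = 0.0141) and the galactosyltransferase gene B4galt5 by 1.08 (adjusted p = 0.0128), while B4galt3 rose by 0.83 (adjusted p = 0.0227). Dimmer probe sets, below the filter and with overlapping groups, gave 0.11 and -1.65 for B3gnt2 and -0.59 for B4galt5. Each of these 4 calls was lost without either parental array and without the 2 arrays of highest GAPDH ratio, with an adjusted p of at most 0.231 over 16 alternatives.

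In the sialylation and fucosylation lists 1 gene each passed. St3gal6, which adds alpha-2,3-linked sialic acid, had log2 signals of 10.61 and 10.77 outside clone II, 11.50 and 10.63 in clone II, and 8.91 and 8.98 in parental cells. It rose 3.81-fold (log2 1.93, SE 0.31, adjusted p = 0.00508, limma), opposite in sign to the St6gal1 values above. The call was lost in 2 of 16 alternatives, without parental replicate 1 (adjusted p = 0.0612) and without it and clone II replicate 1 together (0.0759), and the lowest adjusted p was 0.00369. Of 8 tested sialylation genes the other 7 did not pass, and of 6 tested fucosylation genes Gfus, which makes GDP-fucose, rose by 0.80 (adjusted p = 0.048) and lost its call in 9 of 16 alternatives (0.0237 to 0.31).

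In sugar nucleotide supply, 1 of 7 tested genes rose and 1 fell. Gfpt2, an isoform of the enzyme that opens hexosamine synthesis, read 12.01 and 11.93 outside clone II, 11.86 and 11.66 in clone II, and 9.75 and 10.08 in parental cells, a clear separation of the groups. It rose 3.85-fold (log2 1.95, SE 0.22, adjusted p = 0.000857, limma; 0.000431 to 0.0461 over the alternatives). Slc35a2, the UDP-galactose transporter of the Golgi, fell by 0.97 (SE 0.24, adjusted p = 0.0328) and lost its call in 7 of 16 alternatives (0.0295 to 0.32).

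Of 18 tested genes of Golgi tethering and structure, 1 fell and 17 did not pass. That 1 was Golim4, a Golgi membrane protein that cycles to endosomes. It read 12.05 and 11.64 outside clone II, 11.80 and 12.18 in clone II, and 14.38 and 14.19 in parental cells, and fell 5.15-fold (log2 -2.37, SE 0.20, adjusted p = 0.000258, limma; 0.000205 to 0.0228 over the alternatives). None of 5 mannose 6-phosphate genes passed (lowest adjusted p 0.0828, Igf2r), nor did the 2 tested branching genes Mgat4a (0.88, 0.162) and Mgat4b (0.09, 0.784). Among 4 tested galectins, which bind galactose on glycans, Lgals8 fell by 1.03 (adjusted p = 0.0305), while Lgals1 (-2.20, SE 0.76, adjusted p = 0.0932) did not pass. Lgals8 lost its call in 7 of 16 alternatives (0.0165 to 0.18), and its second probe set did not pass (-0.68, adjusted p = 0.137).

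**Figure D3:**
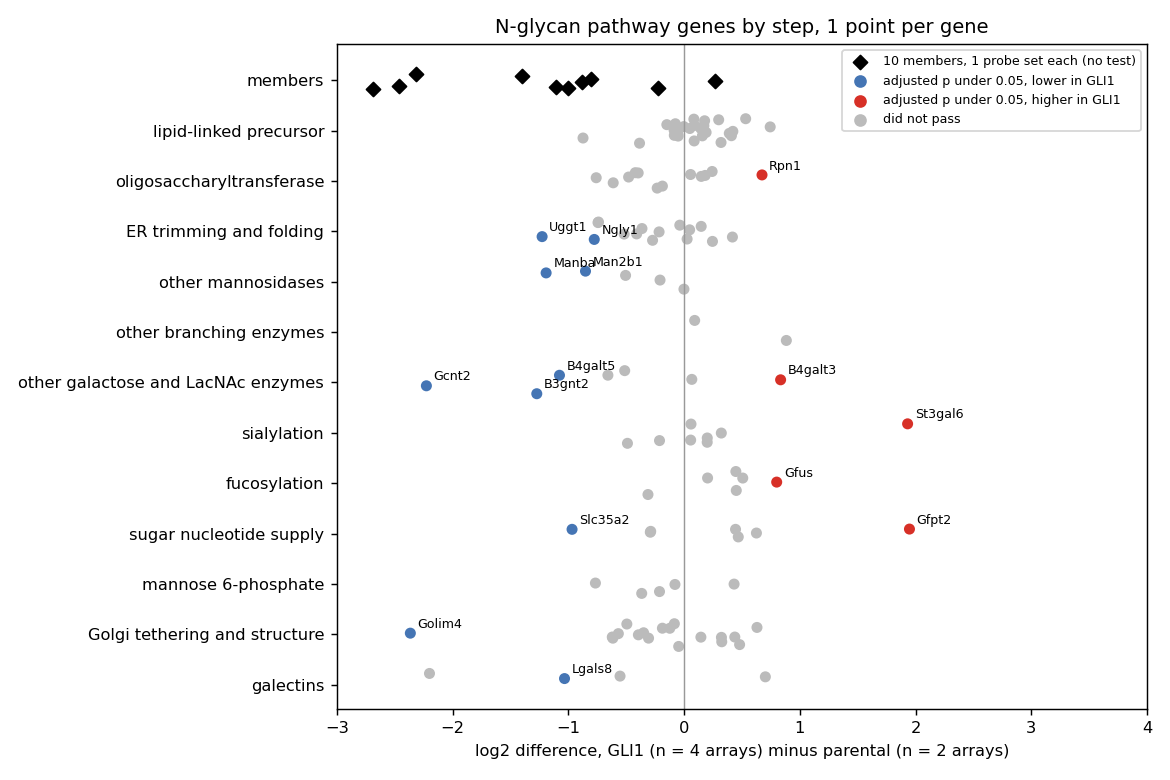
Log2 difference between 4 GLI1 and 2 parental arrays (horizontal axis) for 1 probe set per gene, in rows by gene list. Black diamonds are the 10 members, shown without a test. Blue and red points passed as lower or higher and grey points did not. The row of lipid-linked precursor genes stays between -0.87 and 0.74. Of the blue and red points only Golim4, at -2.37, and Gfpt2, at 1.95, passed in all alternatives.

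By the distance of centred log2 profiles over the 6 arrays, the genes most like Man2a1 were Golim4 (root mean square distance 0.10), the phosphodiesterase gene Pde8a (0.15) and Chn2 (0.19), which encodes a Rac regulator. For Man1c1 the nearest were the immediate early genes Fos (0.25) and Egr2 (0.27) and Errfi1 (0.28), which encodes a feedback inhibitor of the EGF receptor. In these 3 genes, as in Man1c1, clone II replicate 2 had the lowest signal of all arrays. The genes nearest to Man1a1 were Crispld2 (0.47), Card14 (0.56) and Abca3 (0.57), each lowest on clone I, and those nearest to Man2a2 were Glrx (0.07), Dennd2b (0.07) and Cnpy4 (0.08). Likeness was measured over 6 arrays of 2 conditions and carries no test.

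**Figure D4:**
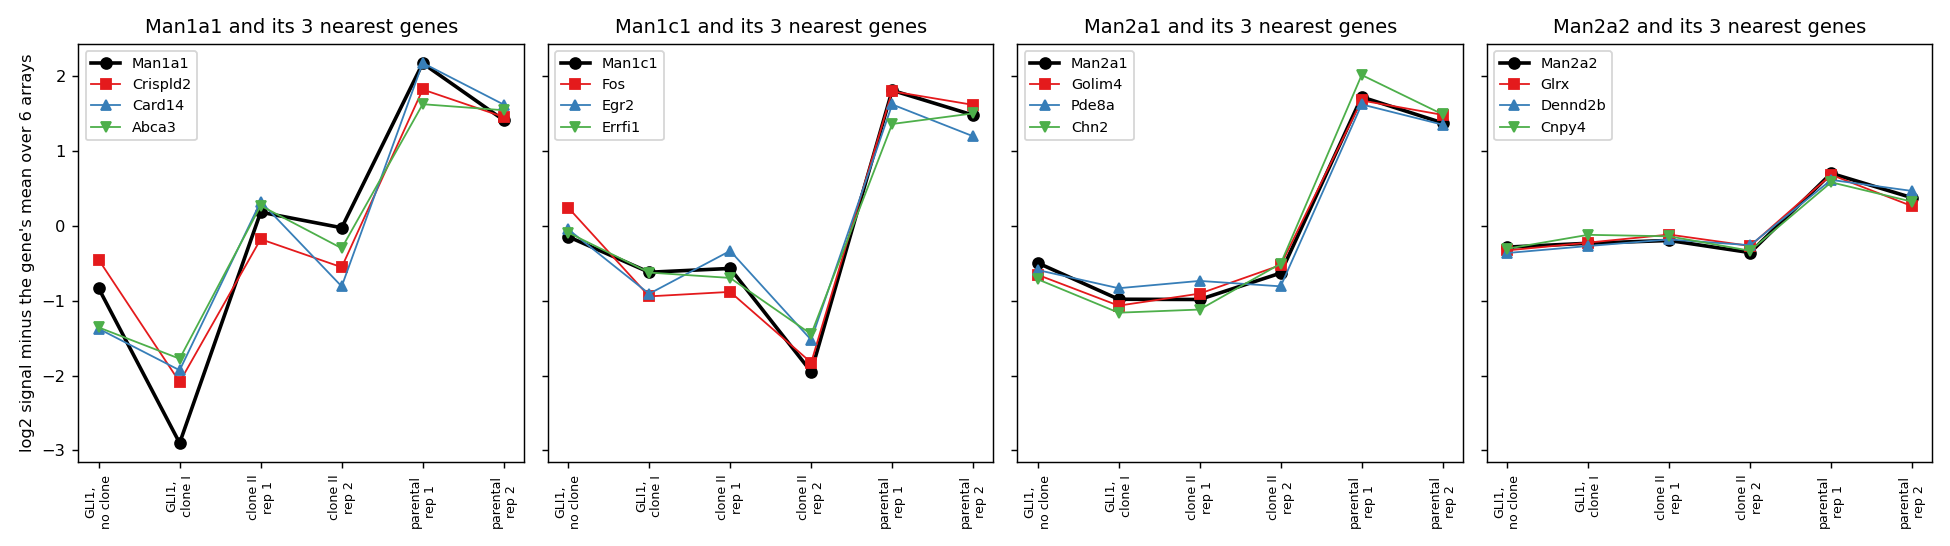
Log2 signal minus the gene's own mean over the 6 arrays (vertical axis) on each array (horizontal axis) for the 4 mannosidase genes (black) and the 3 genes of smallest profile distance to each (colours). Man2a1 and Golim4 run within a distance of 0.10, and the Man1c1 panel shows clone II replicate 2 lowest for all 4 genes.

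Some fibroblast markers and the blood cell marker Cd14 were also lower on the GLI1 arrays, while the sums of endothelial markers overlapped. The summed signal of 8 fibroblast markers ran from 8252 to 17278 on the GLI1 arrays and stood at 191031 and 171422.5 on the parental arrays. Of the 6 above the filter 4 fell, Col1a1, Col1a2, Col3a1 and Ogn. Pdgfra (-0.06, adjusted p = 0.95, limma) and Fbln1 (0.13, 0.887) did not pass, and Dcn and Lum lay below the filter. The other tested Ogn probe sets did not pass (-4.37, adjusted p = 0.067, and -4.63, 0.131, limma). Ogn lost its call in 9 of 16 alternatives, among them without either parental array (adjusted p from 0.0196 to 0.241). The blood cell marker Cd14 fell by 1.82 (adjusted p = 0.0301, limma; lost in 5 of 15 alternatives, 0.00591 to 0.235, among them without either parental array), whereas Ptprc, the defining marker, was below the filter, and the 4 markers summed to 701 to 1500 and to 2647 and 2111. Endothelial markers, 0 of 4 above the filter, summed to 466 to 824 and to 699.9 and 698.5, and kidney epithelium markers to 2320 and 2593 on the parental arrays. Among GLI1 arrays the kidney sums were 1907 and 1585 in clone II against 7695 without a clone name and 9077 in clone I. Most of the latter sums came from Krt8 and Epcam. Krt8 was lower in clone II by a called difference (-3.17, SE 0.29, adjusted p = 0.0157, limma), and Epcam (-2.0, SE 0.34, adjusted p = 0.106) did not pass. The Krt8 call was lost when the array without a clone name was left out. None of these markers was at 0, and the part of these markers in the results was not tested.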

How the data were processed

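The authors deposited 1 signal intensity per probe set and array, on a linear scale. Per the submitters' processing notes the tool was MAS5; a version and a genome build are not given in the sources used here. Values were floored at 1 before log2. Of 31099 probe sets 57 controls were left out, and the 18625 with a mean log2 signal above the 40th percentile (8.33) were tested. The number of arrays limits the precision.

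Groups were compared with limma 3.58.1 in R 4.3.3 (lmFit, eBayes with intensity trend, two-sided, Benjamini-Hochberg over all tested probe sets): 4 GLI1 against 2 parental arrays, and clone II against other GLI1 arrays in a 3-level model. An adjusted p under 0.05 is what "rose", "fell" and "called" stand for. The labels speak of biological replicates without saying how cultures were kept apart, so p-values cover the spread between these arrays only, which may be technical. The fits were tested on simulated data.

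Symbols came from the platform's annotation (20826 probe sets with 1 symbol, 436 with several, 9780 with none), and 20758 were matched by gene ID to RefSeq. A list gene was read on its probe set of highest mean. Named were all members, per list up to 4 called genes by adjusted p and up to 2 of the minority direction, the 3 nearest profiles of each mannosidase, and Gli1; other genes with values were added after these were seen. Members and lists were chosen with earlier results of these data known. Alternatives covered scaling, pseudocount, filter, trend, replicate block, probe set choice, averaged clone II arrays and omitted arrays. Detection calls and protein sequences were not used here.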

Additional observations from a re-analysis of the deposited data

Results flagged for a closer look

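The dim St6gal1 probe set had 1 outlying array among the 4 GLI1 arrays: clone II replicate 2 read 6.26 in log2 signal and the next lowest 7.79, a gap of 0.838 of the whole range, above Dixon's critical value for 4 samples. It was the only such array among 40 probe sets examined, and whether that differs from chance was not tested. Ogn, a fibroblast marker that encodes a small matrix proteoglycan, and Krt8, a keratin of simple epithelium, differed between transformants. For Ogn, clone II exceeded the other GLI1 arrays by 3.98 (log2, SE 0.24, adjusted p = 0.00177, limma), with 11.78 and 11.63 against 7.72 and 7.74. Its other tested probe sets had the same sign but did not pass (3.81, adjusted p = 0.238, and 5.40, 0.169, limma). For Krt8, clone II lay below the other GLI1 arrays, at -3.17 (log2, SE 0.29, adjusted p = 0.0157, limma), with 9.07 and 9.23 against 12.06 and 12.57. That call was lost when the array without a clone name was left out.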

How the results depend on the processing

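Of the 19 member probe sets, 16 kept the sign of their difference under 12 alternatives. For those whose groups did not overlap, leaving arrays out could not have changed the sign. The exceptions were B4galt1 probe sets. The difference of the brightest became 0.015 with the arrays of highest GAPDH ratio, clone II replicate 1 and parental replicate 1, left out. That of the second became -0.37 there and ranged from -0.37 to 0.96 with 1 array left out. The mean difference over all B4galt1 probe sets, which is not among the 12 alternatives, was 0.052.

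The 2438 calls of GLI1 against parental cells became 326 without those 2 arrays and 525 to 3104 with 1 array left out. The split of 44.6% risen became 60.6% when arrays were centred on their medians, with the median difference over tested probe sets at 0.165 in place of 0.0047. The 24 calls of clone II against other GLI1 arrays became 37 with median centring, 10 with quantile normalization, 4 with the filter at the 60th percentile, 11 with no filter, 4 with no intensity trend, 9 without the 2 arrays of highest GAPDH ratio, and 1 to 80 with 1 array left out.

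Of the other N-glycan pathway genes, 10 fell and 5 rose. The fallen were 5 with median centring, 6 with no intensity trend, 1 without those 2 arrays and 1 to 12 with 1 array left out. The risen were 3 with no filter, 2 with no intensity trend, 1 without those 2 arrays and 1 to 5 with 1 array left out. The cause was not tested.

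Replicate numbers were not used to pair the arrays in the main fits. Deviations of same-numbered arrays correlated weakly but positively between groups, at 0.10, 0.32 and 0.07. The deviations of the pair of arrays in a group mirror each other. With positive values, those of all 6 arrays therefore had to correlate best with their own number, which adds nothing further. With the replicate block the clone II comparison had 89 calls in place of 24. GLI1 against parental had 2627 in place of 2438. Whether arrays of the same number share an effect was not tested.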

Other observations

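The dimmest B4galt1 probe set sorted by replicate number rather than by group. Its log2 signal was 4.97, 4.75 and 4.75 on the replicate 1 arrays (without a clone name, clone II and parental) and 7.06, 6.29 and 6.62 on the replicate 2 arrays in the same order. In each of these 3 pairs the replicate 1 array also had the higher GAPDH 3'/5' ratio, 2.09, 7.52 and 3.66 against 1.45, 1.39 and 1.43. Whether the ratio plays a part in this signal was not tested, and the probe set lay below the signal filter.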
